A study of Mus musculus with 5 samples.

Results

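The 10 genes of the cone phototransduction cascade (Opn1sw, Opn1mw, Arr3, Gnat2, Pde6c, Pde6h, Cnga3, Cngb3, Gnb3 and Gngt2) were taken by symbol from a table of 25655 genes, and all 10 were among the 14992 genes that had enough counts to be tested. The counts came from total RNA of injured whole retinas of wildtype C57BL/6 mice, 8 to 10 weeks old. The retinas were collected 7 days after optic nerve crush (ONC) of the left eye. The study used mice of both sexes, and its text does not give the sex behind each retina. Mice were injected intraperitoneally with Sorbinil at 10 mg/kg, an inhibitor of aldose reductase, or with its vehicle DMSO, from 24 h before ONC and then daily. The vehicle group held 3 retinas, DMSO replicates 1, 2 and 3, and the treated group held 2, Sorbinil replicates 1 and 3. All 5 retinas were injured, so the values hold no uninjured level, and a whole retina mixes every retinal cell type. Fewer cones and less cone RNA per cell therefore cannot be told apart.

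Cones are the photoreceptors of daylight and colour vision, and the mouse retina holds far more rods than cones. In a cone, light changes the shape of an opsin, the opsin activates the G protein transducin, and transducin releases the phosphodiesterase PDE6 from its inhibitory subunit. PDE6 then lowers cGMP, the cyclic nucleotide-gated channel closes, and arrestin ends the signal of the opsin. Rods run the same cascade with a parallel set of genes, which served as counterparts here. ONC injures the axons of retinal ganglion cells (RGCs), not photoreceptors.

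Before any comparison, 1 library stood apart from the others. On the first principal component, which held 65.4% of the variance, Sorbinil replicate 1 lay at 75.8 and the other 4 retinas between -28.9 and -7.64. In that retina 2605 genes were at least 2-fold below the DMSO mean, against 32 to 137 in each of the other retinas. Total counts ran from 56096541 to 90288552 per retina. The cone genes took 0.133% to 0.178% of the counts, with the highest share in Sorbinil replicate 1 and the lowest in Sorbinil replicate 3. Results are given with both Sorbinil retinas and with each of them left out.

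The sequences just before the start sites of the 3 cone genes with the highest level per kilobase of transcript are shown, since these genes lead the levels described next. Each is the 120 bases upstream of the start of the canonical transcript in GRCm39, read 5′ to 3′ on the strand of the gene. For Opn1sw this start lies inside the span of the gene. In Gnb3 capitals mark TAATCC, the core bound by the photoreceptor factor CRX and its relatives. In Opn1mw they mark TATAAA, an element of core promoters.
Opn1sw, chr6:29380513-29380632, minus strand: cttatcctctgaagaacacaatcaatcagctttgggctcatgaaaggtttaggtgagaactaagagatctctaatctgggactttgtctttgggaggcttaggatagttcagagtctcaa
Opn1mw, chrX:73170950-73171069, plus strand: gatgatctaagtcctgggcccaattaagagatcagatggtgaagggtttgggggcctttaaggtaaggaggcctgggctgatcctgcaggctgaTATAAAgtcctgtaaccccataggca
Gnb3, chr6:124817239-124817358, minus strand: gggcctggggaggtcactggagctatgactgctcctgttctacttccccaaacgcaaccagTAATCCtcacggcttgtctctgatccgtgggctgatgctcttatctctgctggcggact

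In the 250 bases upstream, searched on both strands, TAATCC was present in 4 of the 10 cone genes. It began 59 bases before the start of Gnb3, 74 before that of Gnat2, 187 before that of Cngb3 and 209 before that of Pde6c. The same letters were present in 5 of the 10 rod counterparts and in 6.34% of the 14627 windows of tested genes. TATAAA was present in 1 of the 10 cone genes, Opn1mw, 26 bases before the start, in 2 rod counterparts and in 7.60% of all windows. A match is a description of these letters and not of bound factor.

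Levels between genes were compared per length, as CPM (a gene's counts scaled to the size of its library after TMM normalization) per kilobase of the canonical transcript. Opn1sw, the short-wavelength opsin, had the highest level over all 5 retinas, with a mean of 238 CPM per kilobase and a range of 187 to 346. Gnb3, the transducin beta subunit of cones, followed at 174 (range 136 to 188), and Opn1sw lay above it in 4 of 5 retinas. Opn1mw, the medium-wavelength opsin, stood at 120 and Gnat2, the cone transducin alpha subunit, at 71.8, and each of these lay above the next gene in all 5 retinas.
Pde6c, the catalytic subunit of cone PDE6, and Arr3, cone arrestin, were neighbours that could not be ordered, at 39.3 and 38.9, with Pde6c above in 3 of 5 retinas. Gngt2, the transducin gamma subunit, stood at 27.7 and Pde6h, the inhibitory PDE6 subunit, at 22.1, an order that changed when the union of all exons was used as the length. The canonical lengths were 2012 bases for Gngt2 and 5941 for Pde6h, so their places depend on the transcript chosen. The channel subunits Cnga3 and Cngb3 were lowest and could not be separated, at 5.70 and 5.68.

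**Figure D1:**
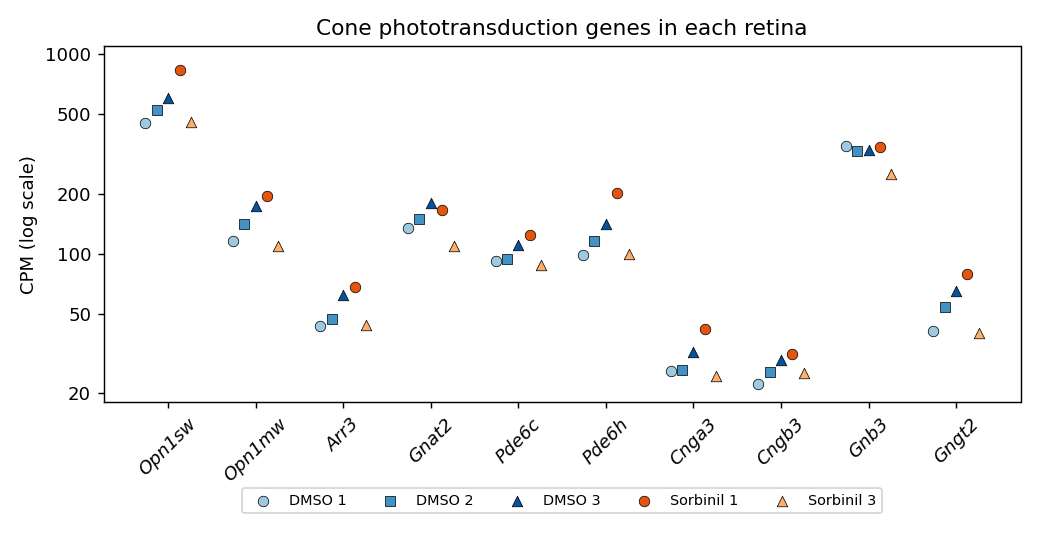
CPM of each cone phototransduction gene (log scale, not divided by length) in the 5 retinas, with 1 point per retina. Sorbinil replicate 1 is the highest point for 8 of the 10 genes, while Sorbinil replicate 3 is the lowest or next to lowest point for each gene.

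Sorbinil treatment was compared with DMSO to find whether the cone genes differed in the injured retina. None of the 10 genes was called at the study's threshold, an unadjusted p of at most 0.1 and at least a 2-fold change, which 1.71% of the tested genes passed. Fitted folds ran from 0.885 for Gnat2 to 1.27 for Pde6h, with 8 genes higher and 2 (Gnat2 and Gnb3) lower, or 6 and 4 when libraries were scaled by their size alone. The median log2 fold change of the 10 genes was 0.14, beside -0.0078 over all genes tested. No cone gene had both Sorbinil retinas above every DMSO retina or both below, while 12.8% and 10.5% of tested genes did. The 2 Sorbinil retinas lay on opposite sides of the DMSO mean for all 10 genes. No gene of the table passed an adjusted p of 0.05 in edgeR's quasi-likelihood test with Benjamini-Hochberg adjustment, where 751 had an unadjusted p under 0.05, and 21 passed by the DESeq2 Wald test. Nothing in the labels says how the retinas were grouped in preparation, so the p-values measure the spread between these samples.

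**Figure D2:**
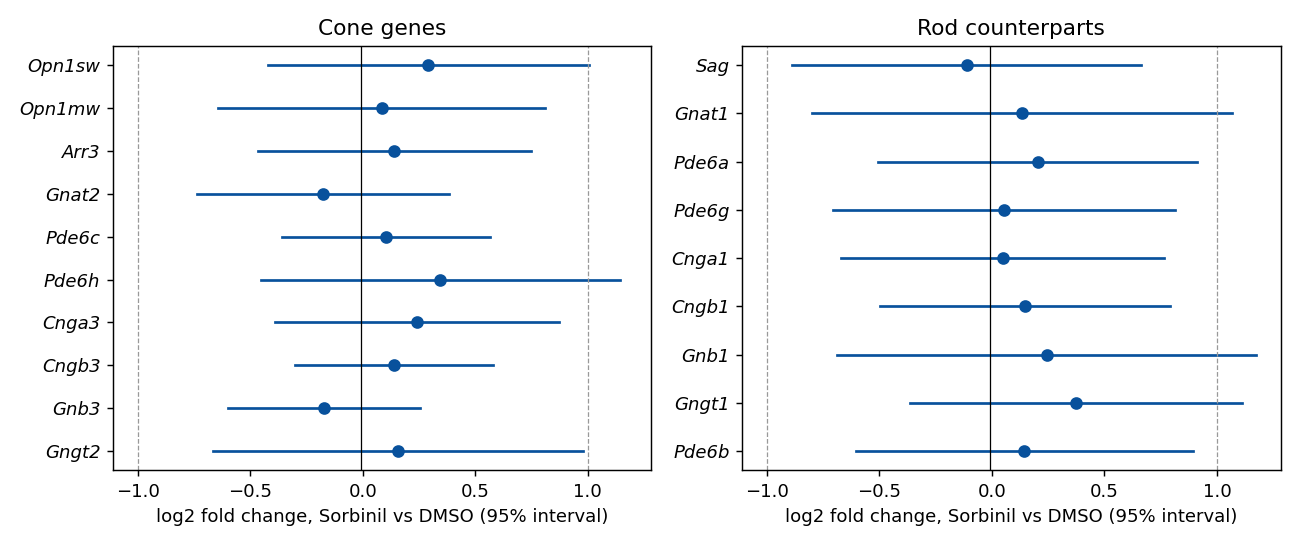
Fitted log2 fold change of Sorbinil against DMSO (points) with its 95% interval (lines) for the 10 cone genes and 9 rod counterparts, with dashed lines at 2-fold in either direction and a solid line at the median of all genes tested (-0.0078). Every interval plotted includes 0.

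The opsins capture light and set the wavelength to which a cone answers. Many mouse cones hold both of them in opposing gradients, with more S opsin (Opn1sw) ventrally and more M opsin (Opn1mw) dorsally. Opn1sw (ENSMUSG00000058831, chr6:29376670-29388467, minus strand) measured 451, 527 and 600 CPM in DMSO replicates 1, 2 and 3, and 833 and 455 CPM in Sorbinil replicates 1 and 3. Sorbinil replicate 1 was thus above every DMSO retina, and Sorbinil replicate 3 fell within them, next to the lowest. The DMSO mean of 526 ± 74.4 CPM (SD, n = 3) compared with a Sorbinil mean of 644 ± 267 CPM (SD, n = 2). Fitted over all genes, the log2 fold change of Opn1sw was 0.29 (SE 0.29, 95% interval -0.42 to 1.00, edgeR adjusted p = 0.764).
Opn1mw (ENSMUSG00000031394, chrX:73171070-73194366, plus strand) measured 116, 141 and 173 CPM in the DMSO retinas and 195 and 109 CPM in the Sorbinil retinas. Here the Sorbinil retinas were the highest and the lowest of the 5, on either side of the DMSO range. Its log2 fold change was 0.08 (SE 0.29, 95% interval -0.64 to 0.81, edgeR adjusted p = 0.926), and it was -0.056 with scaling by library size alone.
Calu, which encodes a calcium-binding protein, shares 397 exon bases with Opn1sw on the opposite strand. Calu had 3552 to 8841 counts per retina against 30857 to 43770 for Opn1sw. The labels describe strand-specific libraries while the study's methods name another kit, and the counting is not stated to have used strand, so reads of the 2 genes may not be fully separated.

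The balance of the opsins was less variable than their levels. The log2 ratio of Opn1sw to Opn1mw was 1.96, 1.90 and 1.79 in the DMSO retinas and 2.09 and 2.06 in the Sorbinil retinas. Both Sorbinil retinas therefore lay above all DMSO retinas, by about as much as the wider gap among the DMSO retinas. In reads, there were 3.88, 3.73 and 3.46 Opn1sw counts per Opn1mw count in the DMSO retinas and 4.26 and 4.17 in the Sorbinil retinas. The mean difference was 0.19 on the log2 scale (1.88 ± 0.08, SD, n = 3, against 2.07 ± 0.02, SD, n = 2, exact two-sided permutation p = 0.1), and 0.1 is the smallest p that the 10 groupings of 5 retinas can give, so that the design cannot reach 0.05. A ratio within a retina does not depend on how libraries are scaled.
Genes that mark dorsal and ventral retina were measured beside the opsins. Of the 4 dorsal genes, Tbx5, a dorsal transcription factor, was -2.75 against the DMSO mean on the log2 scale in Sorbinil replicate 1. Aldh1a1, a dorsal retinaldehyde dehydrogenase, was -1.45 in that retina, Efnb2 -2.22 and Bmp4 -1.13. In Sorbinil replicate 3, Tbx5 was -0.14, Aldh1a1 -0.13, Efnb2 0.05 and Bmp4 -0.24. The list had medians of -1.84 in Sorbinil replicate 1 and -0.13 in Sorbinil replicate 3. Summed, the dorsal genes measured 109 to 131 CPM in DMSO retinas and 36.1 and 112 CPM in Sorbinil replicates 1 and 3. The 4 ventral genes had medians of -0.43 and 0.09, and summed to 101 to 110 CPM in DMSO retinas and 88.0 and 99.6 CPM in the Sorbinil retinas. Vax2, a ventral transcription factor, was 0.45 and -0.40 in these 2 retinas. The other ventral genes were below the DMSO mean in Sorbinil replicate 1 and above it in Sorbinil replicate 3. They were Ephb2 (-0.99 and 0.04), Bmpr1b (-0.70 and 0.14) and Aldh1a3 (-0.16 and 0.66), the last with 13 to 32 counts. None of the 8 genes was called. Markers of inner retinal cells, given further on, had list medians of -1.47 to -1.23 in Sorbinil replicate 1, where that of the dorsal genes was -1.84. The part of retinal position in the opsin ratio was not tested.

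**Figure D3:**
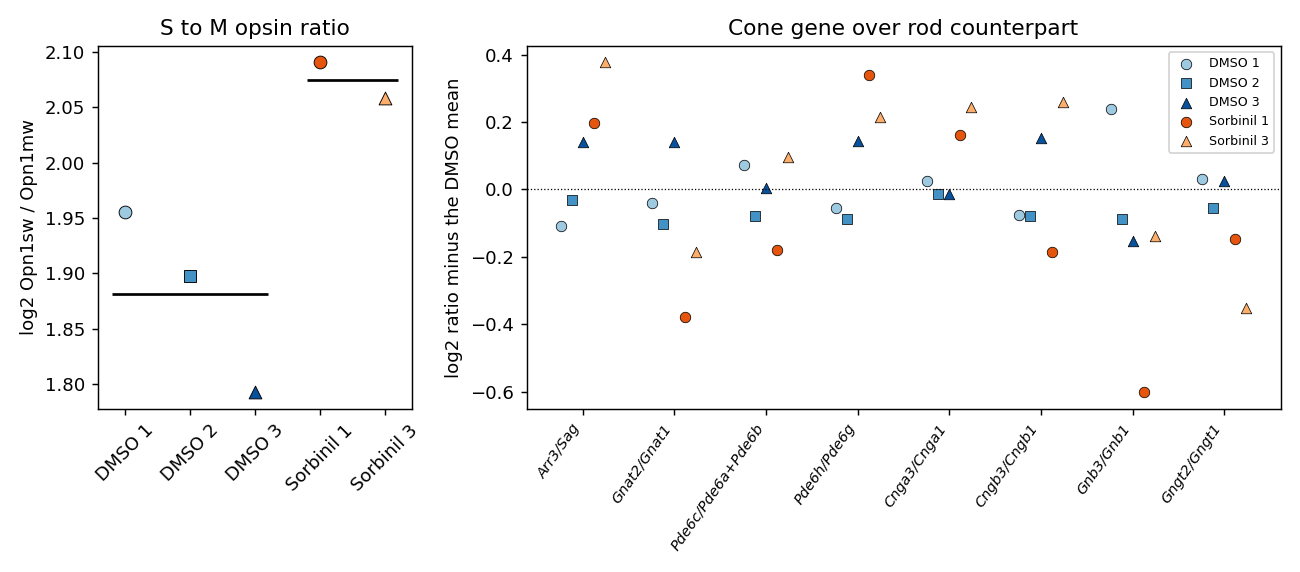
Left, log2 ratio of Opn1sw to Opn1mw in each retina, with lines at the group means. Right, log2 ratio of 8 cone genes to their rod counterparts, minus the DMSO mean of each ratio, in each retina. Both Sorbinil retinas lie above the DMSO retinas for the opsin ratio, while the cone to rod ratios lie on both sides of 0.

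Arr3, which binds phosphorylated cone opsin and stops it from signalling, lies on chromosome X (ENSMUSG00000060890, chrX:99649101-99662099, plus strand). It measured 43.3, 47.2 and 62.1 CPM in the DMSO retinas and 68.0 and 44.1 CPM in the Sorbinil retinas. Sorbinil replicate 1 was the highest retina and Sorbinil replicate 3 lay among the lower DMSO retinas. For Arr3 the log2 fold change was 0.14 (SE 0.25, 95% interval -0.47 to 0.75, edgeR adjusted p = 0.846). Of the 10 genes Arr3 was nearest to their median profile over the 5 retinas, with a root mean square distance of 0.069 on the log2 scale.

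Transducin carries the signal from the opsin to PDE6 as a complex of Gnat2, Gnb3 and Gngt2. Gnat2 (ENSMUSG00000009108, chr3:107999932-108008748, plus strand) measured 134, 149 and 180 CPM in the DMSO retinas and 165 and 109 CPM in the Sorbinil retinas. Unlike the opsins, Gnat2 in Sorbinil replicate 1 stayed inside the DMSO range, and Sorbinil replicate 3 was the lowest retina. Its log2 fold change was -0.18 (SE 0.23, 95% interval -0.73 to 0.38, edgeR adjusted p = 0.800).
Gnb3 (ENSMUSG00000023439, chr6:124811202-124817238, minus strand), which ON bipolar cells also use, measured 347, 329 and 331 CPM in the DMSO retinas and 344 and 251 CPM in the Sorbinil retinas. The DMSO retinas were nearly equal, Sorbinil replicate 1 was within them, and Sorbinil replicate 3 was lower. For Gnb3 the log2 fold change was -0.17 (SE 0.17, 95% interval -0.60 to 0.25, edgeR adjusted p = 0.764). The 11 bipolar cell markers summed to 1506 to 1707 CPM in DMSO retinas, 889 CPM in Sorbinil replicate 1 and 1804 CPM in Sorbinil replicate 3, and none was at 0. Their part in the Gnb3 level was not tested.
Gngt2 (ENSMUSG00000038811, chr11:95725953-95736565, plus strand) measured 40.9, 53.9 and 65.2 CPM in the DMSO retinas and 78.9 and 40.0 CPM in the Sorbinil retinas. As for Opn1mw, the Sorbinil retinas were at the top and the bottom. The log2 fold change was 0.16 (SE 0.33, 95% interval -0.67 to 0.98, edgeR adjusted p = 0.873), and without DMSO replicate 1 it was -0.0028. On the opposite strand 871 exon bases are shared with Abi3, which had 175 to 328 counts.
The subunits did not keep a fixed ratio. The log2 ratio of Gnat2 to Gngt2 was 1.72, 1.47 and 1.46 in the DMSO retinas and 1.06 and 1.44 in the Sorbinil retinas, so that both Sorbinil values lay below the DMSO values, 1 of them barely. Gnat2 to Gnb3 overlapped between the groups, as did the partner ratios outside transducin, Cnga3 to Cngb3 and Pde6h to Pde6c. These ratios were chosen after the data were seen and were not tested. The share of such ratios without overlap was not computed.

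PDE6 of cones is built from Pde6c, the enzyme that breaks down cGMP, and the inhibitory subunit Pde6h. Pde6c (ENSMUSG00000024992, chr19:38121229-38172406, plus strand) measured 91.5, 93.8 and 111 CPM in the DMSO retinas and 124 and 88.1 CPM in the Sorbinil retinas. The Sorbinil retinas enclosed the DMSO values. For Pde6c the log2 fold change was 0.10 (SE 0.19, 95% interval -0.36 to 0.57, edgeR adjusted p = 0.850), and -0.020 with scaling by library size alone.
Pde6h (ENSMUSG00000064330, chr6:136900830-136945863, plus strand) measured 98.0, 116 and 141 CPM in the DMSO retinas and 201 and 99.4 CPM in the Sorbinil retinas. It had the largest difference of the 10 genes in Sorbinil replicate 1, 0.78 above the DMSO mean on the log2 scale, while Sorbinil replicate 3 was close to the lowest DMSO retina. Its log2 fold change of 0.34 (SE 0.32, 95% interval -0.45 to 1.14, edgeR adjusted p = 0.760) was the highest of the members. Arhgdib shares 136 exon bases on the opposite strand and had 287 to 611 counts.

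The channel that closes in light is formed by Cnga3 and Cngb3. Cnga3 (ENSMUSG00000026114, chr1:37253515-37304128, plus strand) measured 25.8, 26.2 and 32.1 CPM in the DMSO retinas and 41.9 and 24.3 CPM in the Sorbinil retinas. As for Pde6c, 1 Sorbinil retina was above and the other below the DMSO range. For Cnga3 the log2 fold change was 0.24 (SE 0.26, 95% interval -0.39 to 0.87, edgeR adjusted p = 0.771). A long noncoding RNA gene, Gm69908, shares 792 exon bases with Cnga3 on the opposite strand.
Cngb3 (ENSMUSG00000056494, chr4:19280850-19510623, plus strand) measured 22.1, 25.6 and 29.3 CPM in the DMSO retinas and 31.4 and 25.1 CPM in the Sorbinil retinas. It was the member whose level in Sorbinil replicate 3 was nearest to the DMSO mean, at -0.02 on the log2 scale. The log2 fold change was 0.14 (SE 0.18, 95% interval -0.30 to 0.58, edgeR adjusted p = 0.800). Counts were lowest for Cngb3, with 1630 in DMSO replicate 3, and the largest Poisson counting error of any retina ran from 0.569% for Opn1sw to 2.48% for Cngb3, well under the spread between retinas.

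The cone genes deviated together within single retinas. In Sorbinil replicate 1 all 10 were above the DMSO mean, with differences from 0.04 for Gnb3 to 0.78 for Pde6h and a median of 0.45 on the log2 scale. In Sorbinil replicate 3 all 10 were below it, from -0.49 for Gnat2 to -0.02 for Cngb3, with a median of -0.22. Sorbinil replicate 1 exceeded every DMSO retina for 8 of the 10 genes, against 43.4% of the tested genes, the exceptions being Gnat2 and Gnb3. Sorbinil replicate 3 lay under every DMSO retina for 6 of the 10 genes, against 29.1%. The 6 were Opn1mw, Gnat2, Pde6c, Cnga3, Gnb3 and Gngt2. The 10 genes were measured in the same retinas and libraries, so they are not independent observations.
The DMSO retinas differed in the same manner. DMSO replicate 3 was the highest DMSO retina for 9 of the 10 genes (38.1% of tested genes) and DMSO replicate 1 the lowest for 9 (37.5%), Gnb3 being the exception to both. The median differences from the DMSO mean were -0.21, -0.02 and 0.22 in DMSO replicates 1, 2 and 3. Gnb3 was the member farthest from the median profile (root mean square distance 0.23), followed by Gnat2 (0.157).

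With 1 Sorbinil retina left out, the direction of the members was set by the other. Without Sorbinil replicate 1, all 10 genes were lower than in DMSO with a median log2 fold change of -0.22, and without Sorbinil replicate 3 all 10 were higher with a median of 0.43. In these fits the lone Sorbinil retina is assumed to vary as the DMSO retinas do. Without Sorbinil replicate 1, Gnb3 (-0.41) and Gnat2 (-0.49) were the members with an unadjusted p under 0.05 in edgeR, as had 1211 of 15357 genes. Without Sorbinil replicate 3, Opn1sw (0.66), Pde6h (0.77), Cnga3 (0.58), Pde6c (0.33) and Gngt2 (0.57) were those members, with a smallest adjusted p of 0.0227, where 7430 of 15266 genes had an unadjusted p under 0.05. No cone gene reached 2-fold in either fit, and none was called.

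**Figure D4:**
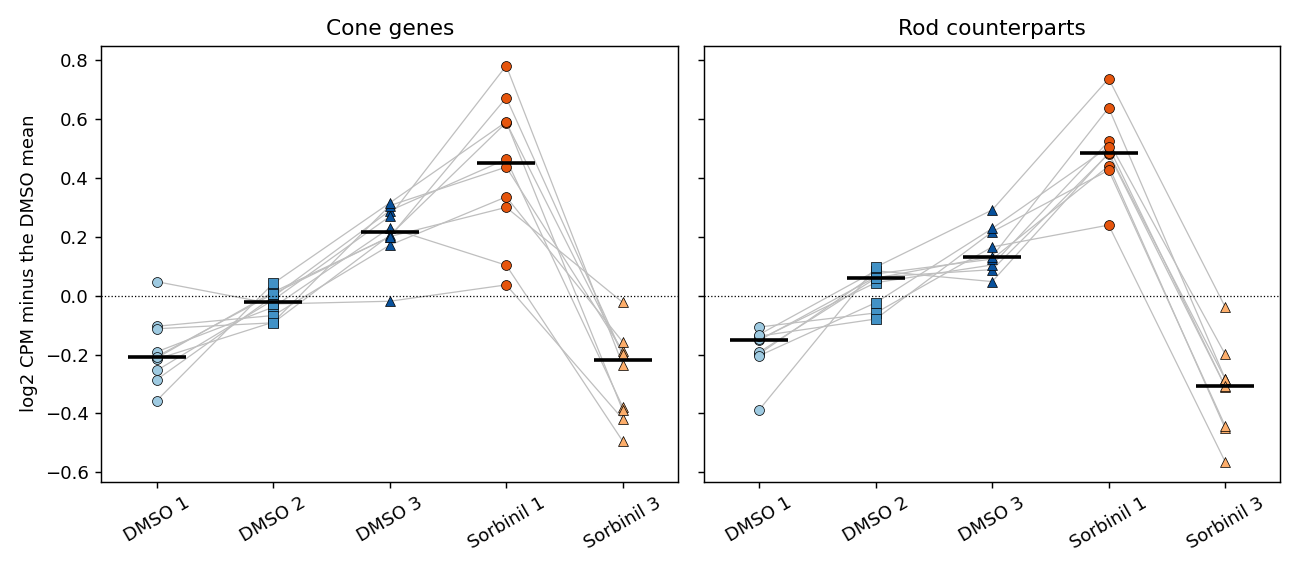
Log2 CPM minus the DMSO mean of the same gene, for the 10 cone genes (left) and 9 rod counterparts (right) in each retina, with 1 point per gene, grey lines joining the same gene and black bars at the median. Both sets sit highest in Sorbinil replicate 1 and lie below 0 in Sorbinil replicate 3, where the cone median is -0.22.

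The rod genes were used to ask whether cones moved apart from rods. Gnat1, the rod transducin alpha subunit, measured 13760, 15962 and 16244 CPM in the DMSO retinas and 21335 and 12337 CPM in the Sorbinil retinas. The Sorbinil retinas were thus at both ends, as for Opn1mw. None of the 10 rod counterparts was called, and their fitted log2 fold changes ran from -0.11 for rod arrestin (Sag) to 0.37 for Gngt1, the rod transducin gamma subunit, with a median of 0.15. In Sorbinil replicate 1 all 10 were above every DMSO retina, by 0.24 to 0.74 over the DMSO mean, against 43.4% of tested genes. In Sorbinil replicate 3, 9 of 10 were below every DMSO retina, against 29.1%.
Within retinas, 5 of the 10 cone to rod ratios had a higher mean in Sorbinil retinas and 5 a lower one. The ratio of Cnga3 to the rod channel subunit Cnga1 was higher in both Sorbinil retinas than in any DMSO retina, by 0.20 on the log2 scale (exact permutation p = 0.1, adjusted p = 0.333 over the 10 pairs). Arr3 to Sag was higher by 0.29 and Pde6h to Pde6g, the rod inhibitory subunit, by 0.28, also without overlap (exact permutation p = 0.2 and adjusted p = 0.4 for each). Gnat2 to Gnat1 was lower in both Sorbinil retinas, with a difference of -0.28, and Gngt2 to Gngt1 with -0.25 (exact permutation p = 0.1 and adjusted p = 0.333 for each).
The 5 ratios without overlap lay on both sides, transducin alpha and gamma lower, and arrestin, inhibitory PDE6 and channel alpha higher. No adjusted p was below 0.333. Of single genes tested, 12.8% had both Sorbinil retinas above every DMSO retina and 10.5% had both below. No such share was computed for ratios. The other 5 ratios overlapped, among them Pde6c to the log2-scale mean of Pde6a and Pde6b, Cngb3 to Cngb1, and Gnb3 to Gnb1. Gnb1, unlike its cone partner, is used by many cell types. The median over the 10 ratios, each centred on its DMSO mean, was -0.16 for Sorbinil replicate 1 and 0.14 for Sorbinil replicate 3.

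Other genes of the cone were followed through a list of 11, of which 10 were tested. Clca3a2, a gene of the calcium-activated chloride channel regulator family, was left out by the filter with at most 4 counts in any retina. None of the 10 was called, 4 had a higher and 6 a lower log2 fold change, and the median was -0.045. They ranged from -0.28 for Rxrg, a nuclear receptor of cones, to 0.40 for Thrb, the thyroid hormone receptor needed for M opsin (edgeR unadjusted p = 0.109). Their medians in Sorbinil replicates 1 and 3 were -0.05 and -0.08. Sorbinil replicate 1 exceeded every DMSO retina for 3 of 10 of them, against 43.4% of tested genes. Sorbinil replicate 3 lay under every DMSO retina for 5 of 10 of them, against 29.1%.
Shutoff and calcium feedback are shared by rods and cones. Of these 10 genes none was called, the median was 0.16, and the medians in Sorbinil replicates 1 and 3 were 0.51 and -0.31. Guca1a, an activator of guanylate cyclase, was lowest at -0.17 and Gucy2f, a photoreceptor guanylate cyclase, highest at 0.69 (edgeR unadjusted p = 0.0986). Gucy2f passed the p limit but not the 2-fold limit.

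Markers of the inner retina differed in Sorbinil replicate 1 in the direction opposite to the cone genes. Against the DMSO mean on the log2 scale, that retina had list medians of -1.23 for 11 bipolar cell genes, -1.29 for 12 amacrine and horizontal cell genes, -1.42 for 8 RGC genes and -1.47 for 7 Müller glia genes, with every gene of these lists tested. In Sorbinil replicate 3 the same medians were -0.02, 0.15, -0.22 and 0.03. The RGC genes summed to 153 to 247 CPM in DMSO retinas and to 72.6 and 191 CPM in Sorbinil replicates 1 and 3, the amacrine and horizontal cell genes to 868 to 1108 and to 383 and 1098 CPM, and the Müller glia genes to 4554 to 5144 and to 1708 and 4770 CPM.
CPM is a share of the counts, so a lower share of 1 cell type can raise that of others. The cone to rod ratios, given above, do not depend on how libraries are scaled. The part of the inner retinal genes in the cone values was not tested. Mitochondrially encoded genes took 1.94% to 2.66% of the counts in DMSO retinas and 3.70% and 4.05% in the Sorbinil retinas, with 13 of 13 above every DMSO retina in both (12.8% of tested genes), and their part was not tested either. The 7 pigment epithelium genes, from the layer behind the photoreceptors, summed to 105 to 253 CPM in DMSO retinas, highest in DMSO replicate 3, and to 83.2 and 145 CPM in the Sorbinil retinas. The 6 microglia genes summed to 111 to 151 CPM and to 75.0 and 124 CPM, none of them called. Of 5 endothelial genes, 3 were called lower, Cldn5 (-1.62), Cdh5 (-1.88) and Tek (-1.31), where 203 of the 14992 tested genes were called lower, and blood genes had 2 of 4 tested and none called.

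**Figure D5:**
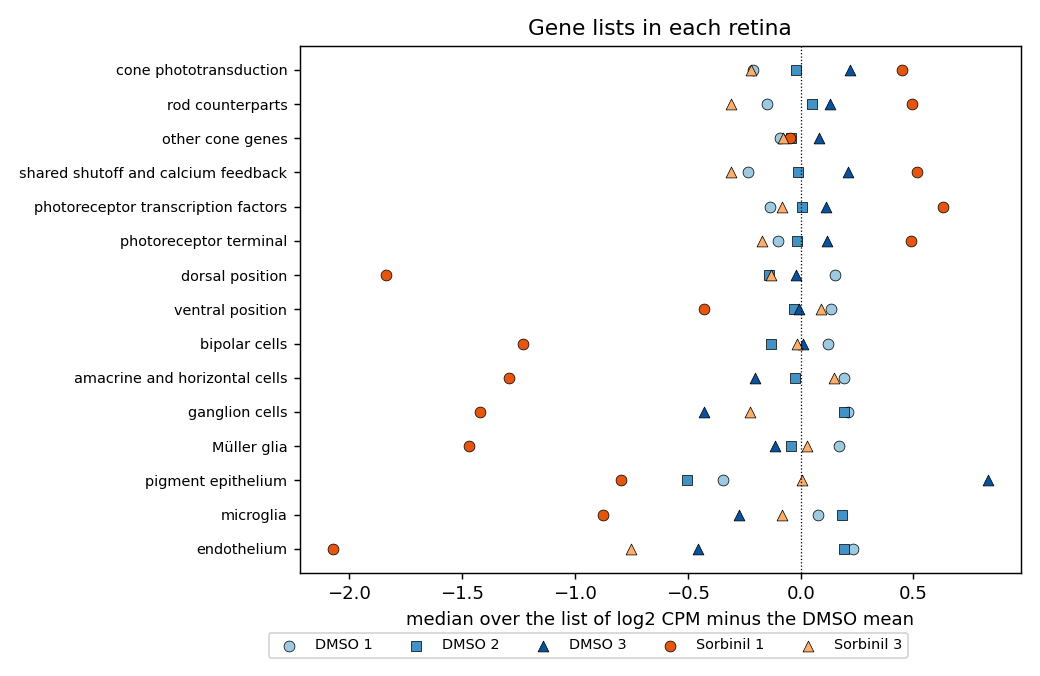
Median over each gene list of log2 CPM minus the DMSO mean, in each retina. Photoreceptor lists lie to the right of 0 in Sorbinil replicate 1 except for the other cone genes, at -0.05, while inner retinal lists lie between -1.47 and -1.23 in that retina.

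The genes with profiles most like the cone genes were sought among 12684 genes with a mean of at least 100 counts, by the root mean square difference of log2 CPM over the 5 retinas. Nearest to the median cone profile were Gucd1 (0.025), Selenof (0.028), the ribosomal protein gene Rps16 (0.030) and the rod gene Pde6b (0.031). Nearest to Opn1sw was Impg2, a proteoglycan of the matrix around photoreceptor outer segments, at 0.0082, followed by 2210408I21Rik and Clba1, at 0.027 each. Nearest to Opn1mw were Ankrd16 (0.029), Atp5e (0.037), a subunit of ATP synthase, and Apoo (0.040). With 5 retinas that share their libraries, and 1 library far from the rest, such likeness is a description.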

How the data were processed

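Injured whole retinas of 3 DMSO and 2 Sorbinil mice were compared. Per the labels and the study's methods, the authors used CLC Genomics Workbench to trim the reads and map them to GRCm39, and what they deposited are whole-number counts for each gene symbol with no normalization. The annotation release, the treatment of reads on more than 1 gene and the use of strand are not given in the sources used here. The authors excluded Sorbinil replicate 2 after PCA, and it was not analysed here. Columns were matched to retinas by name, and 0 value columns were left out.

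Counts were filtered with filterByExpr (minimum count 10), scaled by TMM and tested by glmQLFit and glmQLFTest in edgeR 4.0.16 (R 4.3.3) over all 14992 genes, with Benjamini-Hochberg adjustment. A call needed an unadjusted p of at most 0.1 and a 2-fold change. Log2 CPM used a prior count of 2, ratios an exact two-sided permutation test. No pair of retinas agreed within sampling noise (the smallest chi-square, divided by its degrees of freedom, was 24.6). Totals were 56096541 to 90288552 counts. Reads have no molecular identifiers, and counting errors are therefore minimal errors.

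Positions and lengths came from GENCODE vM39, which held 23488 of the 25655 symbols. The members and lists were chosen with earlier results of these data known. Genes named were the members, their rod counterparts, the called or else the lowest and highest genes of each list, and the nearest profiles, of which 2 genes are not reported here. All listed dorsal and ventral genes were named beside the opsin ratio, and called endothelial genes beside the other cell type markers. Other scalings, filters, tests and thresholds, a replicate block and leaving out each retina were tried, with DESeq2 1.42.0 as another tool. The edgeR fit and its calls were tested on simulated counts with known changes, larger than those of the cone genes.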

Additional observations from a re-analysis of the deposited data

How the results depend on the processing

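No cone gene was called under any of the alternatives, the replicate block included, and the opsin ratio kept its sign with other prior counts and without each retina. The 257 calls over all genes became 408 with no filter on low counts, 148 with at least 10 counts in every retina, 168 at an unadjusted p of at most 0.05, 0 at an adjusted p of at most 0.1 and 1696 with no fold limit. Leaving out each retina gave 164 (without DMSO replicate 1) to 2903 (without Sorbinil replicate 3). Whether the replicate numbers pair the retinas could not be decided. Same-numbered DMSO and Sorbinil retinas had deviations with correlations of -0.24 (replicate 1) and -0.12 (replicate 3). For each DMSO retina the correlations with Sorbinil replicates 1 and 3 were equal in size and opposite in sign. These correlations therefore reflect only the difference between the Sorbinil retinas, and cannot show or exclude pairing. A fit with the replicate block called 203 genes and gave a median cone log2 fold change of 0.10.

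The median cone log2 fold change of 0.14 ran from -0.22 to 0.43 over the fits without 1 retina, and the median cone to rod ratio from -0.16 to 0.14. With scaling by library size alone, which moves the median of all genes to -0.11, Opn1mw became -0.056 and Pde6c -0.020. The log2 fold changes over the fits without 1 retina ran from -0.20 to 0.66 for Opn1sw, -0.38 to 0.45 for Opn1mw, -0.19 to 0.42 for Arr3, -0.49 to 0.095 for Gnat2, -0.15 to 0.33 for Pde6c, -0.24 to 0.77 for Pde6h, -0.19 to 0.58 for Cnga3, -0.019 to 0.29 for Cngb3, -0.41 to 0.038 for Gnb3 and -0.40 to 0.57 for Gngt2. In each, the lowest came without Sorbinil replicate 1 and the highest without Sorbinil replicate 3. The cause was not tested. Without DMSO replicate 1, Opn1mw was -0.047 and Gngt2 -0.0028. Counting error was at most 2.48% for a cone gene, and each group held 2 or 3 retinas.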

Other observations

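Of 10 transcription factors of photoreceptors, 3 had both Sorbinil retinas above every DMSO retina, against 12.8% of tested genes. Rora, a nuclear receptor that acts in cones, measured 362, 386 and 434 CPM in the DMSO retinas and 685 and 508 CPM in the Sorbinil retinas. Neurod1, a factor needed to keep photoreceptors, measured 302, 335 and 343 CPM against 586 and 383 CPM, and Rorb, a nuclear receptor of developing photoreceptors, 519, 557 and 662 CPM against 854 and 716 CPM. Sorbinil replicate 1 was the higher of the pair for all of them. Their log2 fold changes were 0.60, 0.57 and 0.44 (edgeR unadjusted p = 0.0186, 0.0366 and 0.0508, adjusted p = 0.758 for each). None reached 2-fold. In the list of 10, none was called, 9 were higher, Rxrg was the exception, and the medians in Sorbinil replicates 1 and 3 were 0.63 and -0.08. Rora, Neurod1 and Rorb are also used by inner retinal neurons.

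Of 11 genes of the photoreceptor terminal, none was called and the median was 0.17. Pclo, a scaffold protein of the presynaptic active zone, measured 125, 137 and 140 CPM in the DMSO retinas and 166 and 204 CPM in the Sorbinil retinas, with both above the DMSO values. Its log2 fold change was 0.46 (edgeR unadjusted p = 0.0179, adjusted p = 0.758), and Pclo is present at synapses of other neurons too. Elfn2, a synaptic adhesion protein, was lowest at -0.32.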
